A study of Mus musculus with 12 samples.

Results

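The mRNA levels of 38 genes of glucose breakdown and of the response to low oxygen were examined in neurospheres, the floating cultures in which neural stem/progenitor cells (NSPCs) are grown. The members were taken as a list of gene symbols, which was looked up in the count tables, and all 38 were found among the 24525 genes counted. They comprise 2 glucose transporters, 15 enzymes of glycolysis, 4 genes of lactate formation and export, 7 genes of the pyruvate dehydrogenase complex and its kinases, 3 Pfkfb enzymes, 2 hypoxia-inducible factor (HIF) subunits and 5 genes commonly induced by hypoxia. The cultures came from the brains of C57BL/6 mouse embryos at E14.5, were at passage 1, and were grown with 20 ng/ml EGF and 10 ng/ml bFGF, with no other treatment. Wild-type cultures were compared with Ythdf2-/- cultures, 3 libraries each. The Ythdf2-/- embryos descended from a LoxP-flanked allele recombined by a ubiquitously expressed Cre, not by one limited to NSPCs. The libraries were the input fraction of an m6A immunoprecipitation experiment, that is, sonicated mRNA put aside before the antibody was added. The oxygen tension of the cultures is not given in the sources used here.

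Ythdf2 binds mRNAs that carry N6-methyladenosine (m6A) and promotes their decay. Glycolysis splits glucose into pyruvate, which is either reduced to lactate or passed to the mitochondrial tricarboxylic acid (TCA) cycle through pyruvate dehydrogenase, and proliferating progenitors are known for a high glycolytic activity. When oxygen is low, the HIF alpha subunits escape prolyl hydroxylation and degradation, pair with Arnt and bind promoters and enhancers through a short element with the core ACGTG, where they raise the transcription of many glycolytic genes.

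Each library had between 11029827 and 13185778 counted reads, with 16327 to 16593 genes detected. Ythdf2 was read at 71.9, 73.3 and 91.4 CPM (counted reads per 1000000, after TMM scaling) in the 3 wild-type libraries and at 11.7, 14.7 and 11.1 CPM in the 3 Ythdf2-/- libraries, in replicate order, so that the target gene followed the labels in each library. Its log2 fold change was -2.66 (SE 0.183), with an adjusted p of 0.0547 by edgeR's quasi-likelihood test. Wild-type replicate 3 stood apart from the rest: its mean Spearman correlation with the other 5 libraries was 0.9, against 0.962 to 0.97 for each of the others. Wild-type replicates 1 and 2 were the most alike, with a chi-square per degree of freedom of 4.57 against 22.5 to 56.5 between Ythdf2-/- libraries, so the wild-type spread rests on this pair when replicate 3 is left out. Reads of 4 Y-linked genes numbered 1111, 1638 and 2147 in wild-type replicates 1 and 2 and Ythdf2-/- replicate 3, and at most 1 in each other library. The values on which the results turn are therefore given with and without wild-type replicate 3, and both fold changes of each tested member are plotted.

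The progenitor markers expected from the label were present, with Vim, an intermediate filament gene, at 1440 to 3040 CPM and Fabp7, a radial glia gene, at 760.0 to 2410 CPM. Some markers of differentiated cells were high in wild-type replicate 3. The 9 astrocyte markers, led by Slc1a3 and Apoe, summed to 13200 CPM in that library and to 4110 to 10600 CPM in the others. Only 3 of the 9 were highest there, Gfap, Aqp4 and Sparcl1, and Slc1a3 stood at 1870 CPM against 1410 to 3740 CPM. Gfap, an intermediate filament gene of astrocytes named after its values were seen, had 437, 625 and 3050 CPM in wild type and 127, 87.7 and 5.55 CPM in Ythdf2-/-, so that its groups did not overlap with or without wild-type replicate 3 (log2 fold changes -4.22 and -2.85, unadjusted p of 0.0166 and 0.0289 and adjusted p of 0.999 and 0.254 by edgeR). The astrocyte list as a whole did not lie to that side, with 5 markers above and 4 below 0 and a median of 0.11 on the log2 scale. When wild-type replicate 3 was left out, 6 were above 0 and the median was 0.18. The 9 oligodendrocyte lineage markers, led by Olig1 and Olig2, summed to 3470 CPM there and to 1570 to 1900 CPM elsewhere. Among them the myelin gene Mbp, chosen after its values were seen, stood at 573 CPM against 1.21 to 8.85 CPM. The 9 neuronal markers, led by Map2 and Gap43, summed to 1960 CPM in wild-type replicate 3 and to 1230 to 1450 CPM elsewhere. Of the 9, 5 were highest in that library and 1 lowest, Gap43, at 55.8 CPM against 74.1 to 176 CPM. Dcx, a marker of immature neurons named after its values were seen, stood at 315 CPM against 8.36 to 13.1 CPM. The 10 progenitor markers summed to 3900 CPM there against 5160 to 7050 CPM. This lower sum was carried by Nes, Vim and Fabp7, the 3 markers lowest in that library, whereas 6 of the 10 were highest there (Sox2 at 551 CPM against 316 to 426 CPM, with Pax6, Sox1, Prom1, Hes1 and Hes5). Endothelial, microglial and erythroid markers summed to at most 2.21, 1.54 and 0.641 CPM in any library, and Cldn5, Ptprc, Hba-a1, Hbb-bs and Hbb-bt had 0 reads throughout. The part of these cell types in the values below was not tested, and in bulk RNA fewer cells of a type cannot be told apart from less RNA per cell.

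The 38 members accounted for 0.855%, 0.888% and 0.566% of the counted reads of the wild-type libraries and for 0.836%, 0.665% and 0.891% of those of the Ythdf2-/- libraries. The lowest share belonged to wild-type replicate 3, and the groups overlapped. Levels of different genes were compared per length, as reads per kilobase and per 1000000 reads (RPKM, from the same counts and the gene lengths in the authors' tables). Pkm, the pyruvate kinase gene of most tissues, stood highest at 588 ± 168 RPKM (SD over the 6 libraries), followed by Gapdh at 385 ± 86.4, Aldoa at 379 ± 94.1, Ldhb at 351 ± 97.1 and Pgk1 at 325 ± 97.5. The ranges over libraries of neighbours in this order met almost everywhere. They were separate only below Pdhb (84.5 RPKM), below Hk1 (44.2 RPKM), below Pfkl (12.3 RPKM) and below Slc16a3, a lactate exporter at 0.364 RPKM, under which Eno1 alone was listed.

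**Figure D1:**
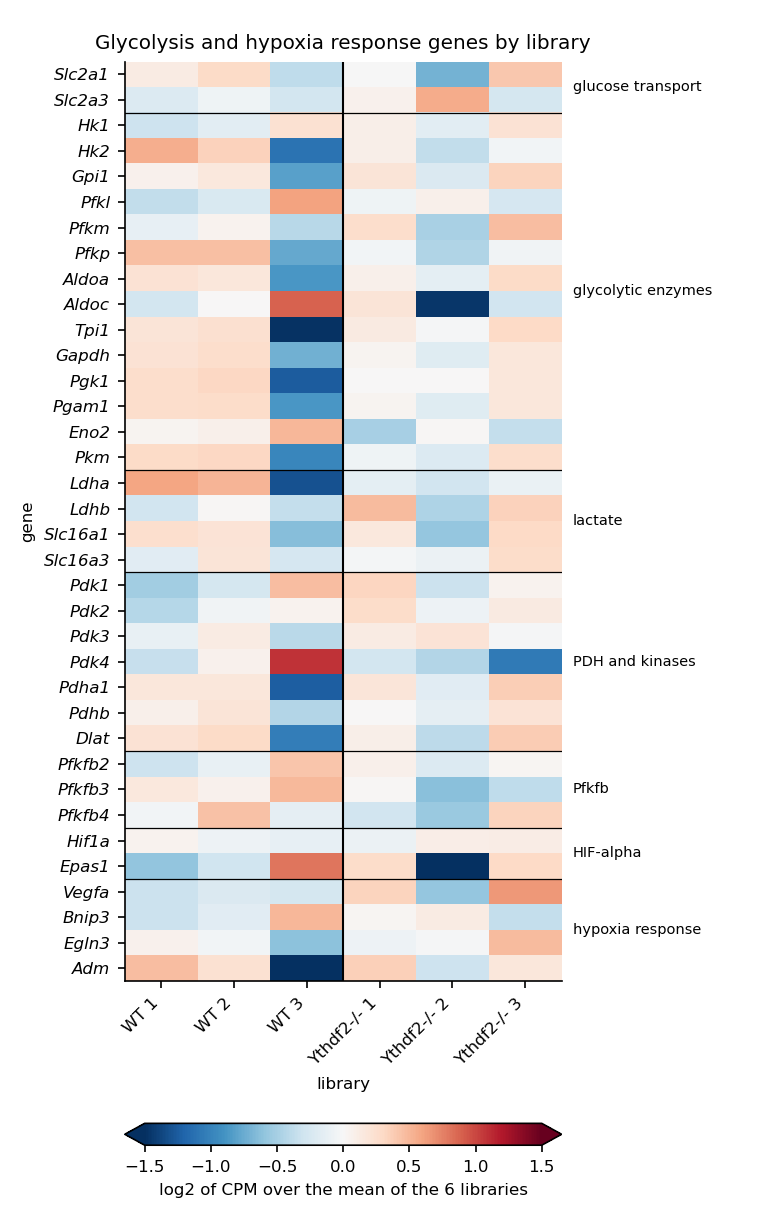
Level of each of the 36 tested members (rows, grouped by role) in each library (columns, wild type left of the line), as log2 of CPM over the mean of the 6 libraries. The column of wild-type replicate 3 departs most from 0, with Tpi1, Pgk1, Ldha and Adm low and Pdk4, Aldoc and Epas1 high, and the 2 genotypes are apart only in the rows of Eno2 and Pfkfb3.

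No member differed between genotypes past the threshold. Of the 38, 36 passed the filter on low counts, and Eno1 and Ankrd37 did not. At an adjusted p under 0.05, 0 of the 36 were called, beside 0 of 13112 genes tested (0%). DESeq2, limma-voom and each other alternative also called 0 members, and at an unadjusted p under 0.05 edgeR called 1 member, Pfkfb3, beside 3.63% of all genes. The Ythdf2-/- libraries all lay above the wild type for 0 members, beside 5.24% of all genes, and all below for 2, Eno2 and Pfkfb3, beside 4.92%. The members' log2 fold changes (Ythdf2-/- over wild type, as everywhere here) ran from -0.95 for Pdk4 to 0.49 for Vegfa, with 23 above and 13 below 0 and a median of 0.07, and the median of all genes tested was -0.01.

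The sign of this median depended on wild-type replicate 3, which was the lowest of the 6 for 20 members and the highest for 10, against 34.4% and 33.8% of all genes. Without it, the members' median was -0.09, with 16 above and 20 below 0, and 15 of the 36 took the opposite sign. The adjusted test then called 0 members, beside 2 of 13283 genes (0.0151%). At an unadjusted p under 0.05, 3 members were lower in Ythdf2-/- (Ldha, Pfkp and Hk2), beside 8.58% of all genes, and 0 were higher, beside 8.03%. The groups then did not overlap for 9 members with Ythdf2-/- lower, beside 20.1% of all genes, and for 1 with Ythdf2-/- higher, beside 18.8%. The 9 were Hk2, Pfkp, Gapdh, Pgk1, Pgam1, Eno2, Pkm, Ldha and Pfkfb3, and the 1 was Hk1. The count of 9 stood near the share of all genes and the count of 1 under it. Ythdf2-/- replicate 2 was the lowest library for 8 members (14.3% of all genes) and Ythdf2-/- replicate 3 the highest for 13 (16.3% of all genes), so the Ythdf2-/- libraries also differed among themselves.

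**Figure D2:**
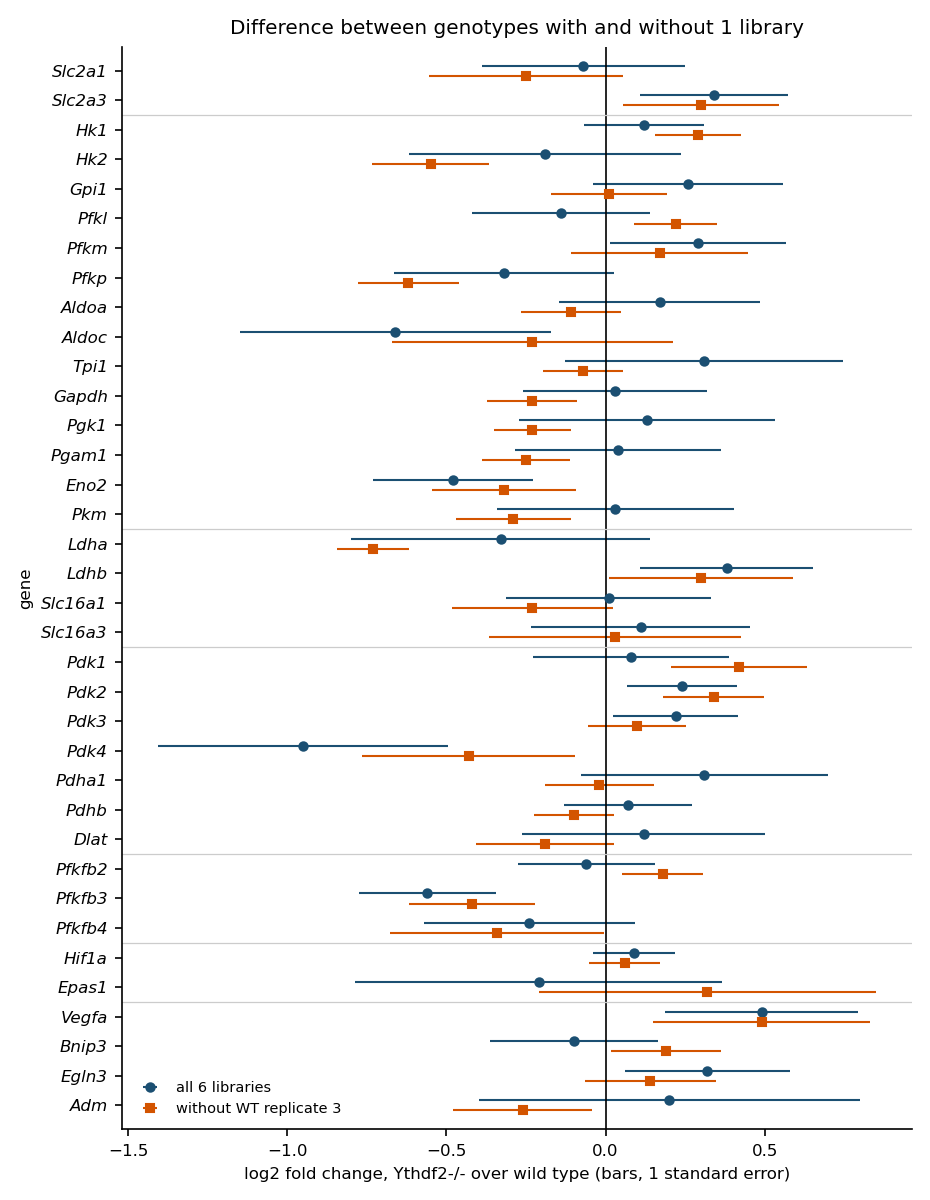
Log2 fold change of each tested member, Ythdf2-/- over wild type, with 1 standard error, from all 6 libraries (circles) and without wild-type replicate 3 (squares). Ldha, Pfkp and Hk2 lay at -0.33, -0.32 and -0.19 in all 6 libraries and at -0.73, -0.62 and -0.55 without that library, with shorter error bars.

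For 8 members, chosen after their values were seen, stretches of promoter before the start that hold the core ACGTG are shown here, so that the letters of the HIF core can be set beside the values. The windows searched ran from 250 bases before to 50 bases after each RefSeq start in GRCm38.p6, the assembly also named mm10, and both strands were read, so that CACGT is the same core on the other strand. The palindrome CACGTG, which is also an E-box, holds the core on both strands, and the related GCGTG was not searched. Of the 38 members, 36 had such a window, and Slc2a3 and Epas1 did not. The core was found in 27 of 53 member windows (50.9%), against 19.6% of all 32851 windows, and in at least 1 window of 23 members (63.9%), against 21.8% of all genes with a window. The members were listed as glycolysis and hypoxia genes, many of which HIF is known to raise. These shares are therefore background and not a result of these libraries. Capitals mark the core in the following stretches of 30 bases, which read 5′ to 3′ on the gene's strand.
Ldha, chr7:46845647-46845676, plus strand, first base 157 before the start: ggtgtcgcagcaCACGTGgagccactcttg
Ldha, chr7:46845750-46845779, plus strand, first base 54 before the start: agcctaCACGTGggttcccgCACGTccgct
Hk2, chr6:82774664-82774693, minus strand, first base 239 before the start: tagccacggaacaCACGTcccaactctggc
Hk2, chr6:82774490-82774519, minus strand, first base 65 before the start: caatgagcacatcCACGTcactgtccgggg
Pfkfb3, chr2:11553973-11554002, minus strand, first base 73 before the start: cctccgcgccgtgACGTGccaagctgtgac
Pfkfb3, chr2:11502126-11502155, minus strand, first base 65 before its other start: cacccttctctcCACGTGaaagggggctgg
Pgk1, chrX:106186947-106186976, plus strand, first base 153 before the start: aggACGTGacaaatggaagtagCACGTctc
Pgam1, chr19:41911744-41911773, plus strand, first base 127 before the start: gcgctccttgcttACGTGcgctccgtgact
Pkm, chr9:59657139-59657168, plus strand, first base 88 before the start: cctccgatccggtCACGTccgcgccgcagc
Slc2a1, chr4:119108696-119108725, plus strand, first base 49 before the start: agtcccgccccggACGTGctccccaggccc
Bnip3, chr7:138909597-138909626, minus strand, first base 120 before the start: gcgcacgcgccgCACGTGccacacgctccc
Ldha carried the core at 3 places in 1 window and Hk2 and Pgk1 at 2, and Pfkfb3 held it in the windows of both its starts. Pkm also has a window at an earlier start, and Ldha has another at a later start, and neither held a match. The stretch shown for Pkm therefore lies after its earlier start. Gapdh and Hk1 held matches only after the start, which are not shown. The windows of Pfkp, Eno2, Tpi1, Adm and Pdk4 held no match. Hif1a, which codes for a HIF subunit itself, held matches at 2 places, and Vegfa held 1 in the window of 1 of its 2 starts. A match shows only where these letters stand, and its use in NSPCs was not measured.

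Glucose enters cells through transporters of the Slc2a family. Slc2a1, which codes for the widespread transporter GLUT1, stood at 40.1, 44.8 and 28.1 CPM in the wild-type libraries and at 36.5, 22.4 and 48.5 CPM in Ythdf2-/-. The Ythdf2-/- libraries spanned the wild-type range on both sides, and the log2 fold change was -0.07 (SE 0.319). Slc2a3, which codes for GLUT3, the transporter typical of neurons, stood at 20.0 to 23 CPM in wild type and 20.1 to 35.5 CPM in Ythdf2-/- (log2 fold change 0.34, SE 0.233). Per length, Slc2a1 made up 50.1% ± 7.19 of 5 transporter genes in wild type and 40.8% ± 14.7 in Ythdf2-/- (SD, n = 3), and Slc2a3 made up 18.6% ± 0.979 and 19.9% ± 5.86.

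Hexokinases trap glucose by phosphorylation. Hk1, the constitutive form (chr10:62268855-62379920, minus strand), had 146, 162 and 213 CPM in wild type and 193, 163 and 210.0 CPM in Ythdf2-/-. Wild-type replicate 3 was the highest, and without it the Ythdf2-/- libraries all lay above the wild type, with a log2 fold change of 0.29 (SE 0.135) against 0.12 (SE 0.188) in all 6. Hk2, the inducible form (chr6:82725025-82774454, minus strand), had 19.6, 17 and 6.22 CPM in wild type and 14.2, 10.4 and 13 CPM in Ythdf2-/-. The Ythdf2-/- values lay between wild-type replicate 3 and the other 2 wild-type libraries. The log2 fold change of Hk2 was -0.19 (SE 0.426) in all 6 libraries and -0.55 (SE 0.183) without that library, with an unadjusted p of 0.023 and an adjusted p of 0.242 by edgeR. Per length, Hk1 made up 89.7% to 97.6% and Hk2 2.13% to 8.94% of the 5 hexokinase genes across the 6 libraries, so that Hk1 led in each of them.

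Phosphofructokinase commits glucose to glycolysis, and its subunits come from 3 genes named after muscle (Pfkm), liver (Pfkl) and platelets (Pfkp). Pfkm led, with 254 ± 41.7 CPM in wild type and 310.0 ± 98.4 CPM in Ythdf2-/- (SD, n = 3), or, per length, 76.8% to 89.4% of the family. Pfkp (chr13:6579874-6649060, minus strand) had 32.6, 32.5 and 14 CPM in wild type and 23.1, 17.4 and 22.9 CPM in Ythdf2-/-. As for Hk2, wild-type replicate 3 was the lowest library and the other 2 wild-type libraries the highest. The log2 fold change of Pfkp was -0.32 (SE 0.346), and without that library -0.62 (SE 0.158), with an unadjusted p of 0.00701 and an adjusted p of 0.19 by edgeR. Pfkl went the other way, with 69.2 CPM in wild-type replicate 3 and 35.3 to 48 CPM in the other 5 libraries. Exons of Pfkp and Pfkm overlap genes on the opposite strand (Pitrm1 over 285 bases, Senp1 over 300 bases), and since the strand setting of the counting is not given, their counts may hold some reads of these genes. The same holds for Pdha1, with the longest such overlap of the members (Map3k15 over 598 bases), and for Adm (Gm28863 over 285 bases). It also holds for Hk1 (Hk1os over 179 bases), Pfkfb2 (Yod1 over 154 bases) and Pfkfb3 (Gm52500 over 124 bases). For Slc2a1, Ankrd37, Tpi1 and Ldha such overlaps covered 1 to 51 bases.

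**Figure D3:**
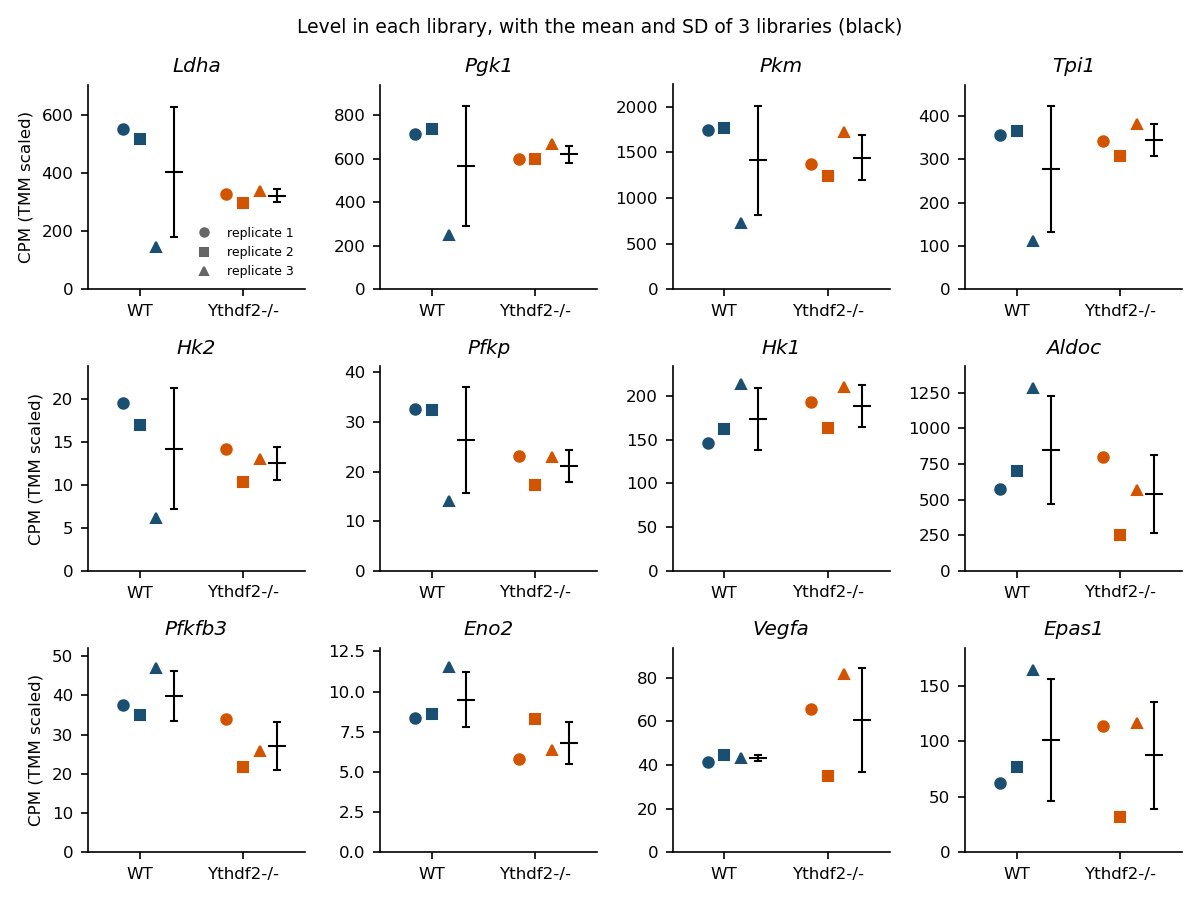
CPM of 12 members in each library (circle, square and triangle for replicates 1, 2 and 3), with the mean and SD of each genotype in black and axes that start at 0. For Ldha, Pgk1, Pkm, Tpi1, Hk2 and Pfkp the triangle of the wild type lies below all other points, and for Pfkfb3 and Eno2 the Ythdf2-/- points lie below the wild type.

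The middle and lower steps of glycolysis were strongly expressed. Pgk1, which codes for the first ATP-forming enzyme of the pathway (chrX:106187100-106203699, plus strand), had 711, 737 and 249 CPM in wild type and 596, 596 and 665 CPM in Ythdf2-/-. Pkm (chr9:59656576-59679372, plus strand) had 1750, 1770 and 726 CPM in wild type and 1370, 1240 and 1720 CPM in Ythdf2-/-. In both genes wild-type replicate 3 was the lowest library and wild-type replicates 1 and 2 the highest. Their log2 fold changes were 0.13 (SE 0.403) and 0.03 (SE 0.372) in all 6 libraries and turned to -0.23 (SE 0.121) and -0.29 (SE 0.18) without that library. Gapdh, Pgam1 and Aldoa were low in the same library: wild-type replicate 3 had 312, 224 and 312 CPM, or 56.3%, 50.1% and 49.8% of the mean of the other 5. Tpi1, the triose phosphate isomerase gene, was the most reduced of the enzymes in that library, at 111 CPM against 307 to 381 CPM elsewhere, or 31.8% of their mean. Gpi1, which codes for the enzyme after hexokinase, had 307 CPM there and 465 to 680.0 CPM elsewhere, and its log2 fold change was 0.26 (SE 0.298) with that library and 0.01 (SE 0.183) without it.

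Aldoc, the aldolase gene of brain and a marker of astrocytes, did not follow Aldoa. It had 573, 698 and 1280 CPM in wild type and 797, 254 and 571 CPM in Ythdf2-/-. The highest value thus lay in wild-type replicate 3, the library with the highest astrocyte marker sum, and the lowest in Ythdf2-/- replicate 2, the one with the lowest. The log2 fold change was -0.66 (SE 0.489), and -0.23 (SE 0.441) without wild-type replicate 3. Per length, Aldoc made up 69.9% of the aldolase genes in wild-type replicate 3 and 21.7% to 42.6% in the other 5 libraries.

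Enolase was the one step for which the main gene could not be read. Eno1 had 0, 2 and 0 reads in wild type and 3, 1 and 2 reads in Ythdf2-/-, and Eno1b, a near copy of it, had 0 in all libraries. Outside its own locus Eno1 has 2 alignments of at least 500 bases at 97% identity or more in GRCm38.p6, and the treatment of reads that map to several places is not given, so these counts are not taken as its level. The same caution holds for Gapdh, with 36 such copies, for Pgk1 with 3, for Pgam1 with 2, and for Pkm, Ldhb, Tpi1, Gpi1 and Pdhb with 1 each, although these genes stood at 92.3 CPM or more in every library. Eno2, the neuronal enolase gene (chr6:124760053-124769673, minus strand), had 8.39, 8.62 and 11.5 CPM in wild type and 5.8, 8.29 and 6.36 CPM in Ythdf2-/-. Its groups did not overlap, but Ythdf2-/- replicate 2 lay close under the lowest wild-type value, and the log2 fold change of -0.48 (SE 0.252) had an unadjusted p of 0.103 and an adjusted p of 0.999 by edgeR. It stood at -0.32 (SE 0.226) without wild-type replicate 3.

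Lactate dehydrogenase is a tetramer of A subunits (Ldha), which are linked with the formation of lactate, and B subunits (Ldhb). Ldha (chr7:46842274-46855627, plus strand) had 550.0, 517 and 147 CPM in wild type and 329, 298 and 340.0 CPM in Ythdf2-/-. The Ythdf2-/- libraries were close together, and wild-type replicate 3 lay under all of them and the other wild-type libraries above all. The means were 404 ± 224 and 322 ± 21.7 CPM (SD, n = 3), and the log2 fold change was -0.33 (SE 0.469, 95% interval -1.46 to 0.81) with an adjusted p of 0.999 by edgeR. When wild-type replicate 3 was left out it became -0.73 (SE 0.113), with an unadjusted p of 0.000585 and an adjusted p of 0.151, and limma-voom with a weight for the quality of each library gave -0.66 (SE 0.15) with an adjusted p of 0.0604, the smallest of any member under any alternative. Over all alternatives the adjusted p of Ldha ran from 0.0604 to 1. With a term for the Y-linked reads the sign turned, at 0.22 (SE 0.426). Ldhb had 375, 463 and 358 CPM in wild type and 636, 333 and 584 CPM in Ythdf2-/-, with the groups overlapping and a log2 fold change of 0.38 (SE 0.273).

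The balance of the 2 subunits was compared within each library, where scaling has no part. The ratio of Ldha to Ldhb CPM was 1.46, 1.12 and 0.41 in wild type and 0.517, 0.895 and 0.582 in Ythdf2-/-. Wild-type replicate 3 thus had less Ldha relative to Ldhb than any Ythdf2-/- library, and the other 2 wild-type libraries had more. The log2 ratio differed by -0.44 (exact two-sided permutation test, p = 0.6), and without wild-type replicate 3 by -0.99, with Ythdf2-/- lower and no overlap (exact permutation p = 0.2). Of 9 planned isozyme ratios, 8 could be computed, since Eno1 had 0 reads in 2 libraries, and their exact permutation p-values lay between 0.3 and 1, where 0.1 is the smallest that 3 against 3 libraries allow. The adjusted p-values over the 8 ratios were 0.914 or 1. Hk2/Hk1 and Pfkp/Pfkm likewise showed Ythdf2-/- below the wild type without overlap when wild-type replicate 3 was left out, by -0.84 and -0.75 on the log2 scale (exact permutation p = 0.1 and 0.2), while in all 6 libraries they overlapped, at -0.17 and -0.47. The direction of Hk2/Hk1 turned to 0.26 without wild-type replicate 1 and to 0.08 without wild-type replicate 2, and that of Pfkp/Pfkm to 0.32 from the deposited FPKM.

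**Figure D4:**
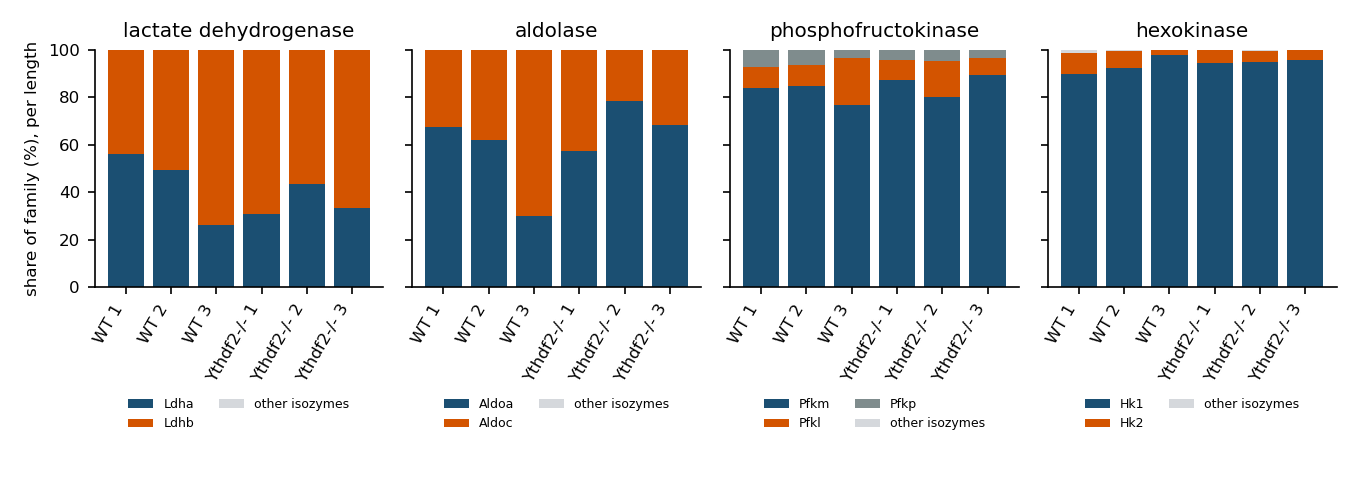
Share of each isozyme in its family, from reads per length, in each of the 6 libraries (bars to 100%). Ldha ran from 26.2% in wild-type replicate 3 to 55.9% in wild-type replicate 1, with the Ythdf2-/- libraries at 30.9% to 43.6%, whereas Hk1 and Pfkm held most of their families in every library.

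Monocarboxylate transporters carry lactate across the membrane. Slc16a1 (MCT1) had 129, 125 and 69.5 CPM in wild type and 121, 72.4 and 133 CPM in Ythdf2-/-, with 1 low library in each genotype and a log2 fold change of 0.01 (SE 0.322). Slc16a3 (MCT4), the hypoxia-induced exporter of highly glycolytic cells, had 8 to 13 reads in every library, 0.732 to 1.05 CPM, and its log2 fold change was 0.11 (SE 0.345). Exons of Slc16a3 overlap Csnk1d on the opposite strand over 374 bases. Per length, Slc16a1 made up 87.7% to 96.3% of the 3 transporter genes.

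Pyruvate dehydrogenase passes pyruvate to the TCA cycle, and its kinases (Pdk1 to Pdk4) switch it off. Pdha1, which codes for the E1 alpha subunit that the kinases phosphorylate, had 374, 373 and 141 CPM in wild type and 376, 296 and 430.0 CPM in Ythdf2-/-. Dlat and Pdhb, the genes of the E2 and E1 beta subunits, were also lowest in wild-type replicate 3, at 44.3% and 69.9% of the mean of the other libraries. Their log2 fold changes lay between 0.07 and 0.31 in all 6 libraries and between -0.19 and -0.02 without it. Among the kinases Pdk2 led, with 65.2% ± 0.985 of the family per length in wild type and 67.8% ± 1.89 in Ythdf2-/- (SD, n = 3). Pdk2 had 47.1, 61.1 and 65.3 CPM in wild type and 76.3, 59.9 and 69.3 CPM in Ythdf2-/- (log2 fold change 0.24, SE 0.173). Pdk1, the kinase known as a HIF target, had 18.5, 22 and 36.6 CPM in wild type and 33.1, 21.1 and 27.4 CPM in Ythdf2-/-, and the groups overlapped with and without wild-type replicate 3. Pdk4, a kinase linked with fasting, had the lowest log2 fold change of all members, -0.95 (SE 0.455), from 3.17, 4.2 and 8.51 CPM in wild type and 3.33, 2.96 and 1.93 CPM in Ythdf2-/-. Its unadjusted p was 0.0809 by edgeR, the groups overlapped, and without wild-type replicate 3, its highest library, the value was -0.43 (SE 0.334). Pdk3 stayed within 11.7 to 17.8 CPM.

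The Pfkfb enzymes make and remove fructose 2,6-bisphosphate, the strongest activator of phosphofructokinase. Pfkfb3, the form that mainly makes it (chr2:11471430-11554071, minus strand), had 37.5, 35.1 and 47 CPM in wild type and 33.9, 21.7 and 25.7 CPM in Ythdf2-/-. The groups did not overlap, with Ythdf2-/- replicate 1 close under the lowest wild-type library. The means were 39.9 ± 6.32 and 27.1 ± 6.24 CPM (SD, n = 3), and the log2 fold change was -0.56 (SE 0.216, 95% interval -1.08 to -0.03). Its unadjusted p was 0.0401 and its adjusted p 0.999 by edgeR. Without wild-type replicate 3, which was the highest library, the groups still did not overlap, and the log2 fold change was -0.42 (SE 0.197) with an unadjusted p of 0.0746. From the deposited FPKM, for which this gene had 0 to 6.35 expected counts in a library, the direction was reversed, at 1.55 with a pseudocount of 1 and 3.55 with 0.1 on the log2 scale. Pfkfb2, the form of heart and brain, was the more abundant per length, at 61.3% ± 4.53 of the family in wild type and 69% ± 1.39 in Ythdf2-/-, and Pfkfb3 made up 30.0% ± 2.34 and 23.4% ± 3.14 (SD, n = 3). Pfkfb2 had 56.1 to 93.2 CPM and a log2 fold change of -0.06 (SE 0.215), and Pfkfb4 had 3.48 to 6.94 CPM and -0.24 (SE 0.331).

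Of the 2 HIF alpha subunits, Hif1a was the steadiest of the members. It had 255, 234 and 227 CPM in wild type and 231, 264 and 267 CPM in Ythdf2-/-, a log2 fold change of 0.09 (SE 0.129, 95% interval -0.22 to 0.4), and its highest level was 1.18 times its lowest. Since the HIF subunits are controlled mainly through protein stability, this mRNA level does not measure HIF activity. Epas1, which codes for HIF-2 alpha, varied widely within each genotype. It had 62.4, 76.8 and 164 CPM in wild type and 114, 31.6 and 116 CPM in Ythdf2-/-, and its log2 fold change was -0.21 (SE 0.577), or 0.32 (SE 0.53) without wild-type replicate 3. Like Aldoc, Epas1 was highest in wild-type replicate 3 and lowest in Ythdf2-/- replicate 2.

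Of the 5 genes commonly induced by hypoxia 4 were tested, and none had an unadjusted p under 0.05 by edgeR. Vegfa, which codes for the vascular endothelial growth factor, had the highest log2 fold change of all members, 0.49 (SE 0.303). It had 41.6, 44.7 and 43.3 CPM in wild type and 65.6, 34.8 and 81.5 CPM in Ythdf2-/-. The wild-type libraries were close together, and the Ythdf2-/- libraries lay on both sides of them, with an unadjusted p of 0.156 by edgeR and the same log2 fold change without wild-type replicate 3. Egln3, a prolyl hydroxylase that marks HIF for degradation, had 16.8, 15.6 and 10.5 CPM in wild type and 15.3, 15.9 and 22.4 CPM in Ythdf2-/- (log2 fold change 0.32, SE 0.26, and 0.14, SE 0.206, without wild-type replicate 3). Adm, the adrenomedullin gene, had 24.9, 21.1 and 4.3 CPM in wild type and 19.3 ± 4.37 CPM in Ythdf2-/- (SD, n = 3). Its level in wild-type replicate 3 was 20.7% of the mean of the other 5 libraries, the lowest such share of the tested members, and its log2 fold change turned from 0.2 (SE 0.598) to -0.26 (SE 0.218) without it. Bnip3, a mitophagy receptor gene, was highest in that library, at 41.2 CPM against 22.7 to 31.7 CPM. Ankrd37, a small ankyrin repeat gene, had 4 to 15 reads per library and was not tested. The median of the 4 genes tested was 0.26, and it was 0.16 without wild-type replicate 3, 0.05 to 0.45 over the omissions of 1 library, and 0.54 with a term for the Y-linked reads.

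**Figure D5:**
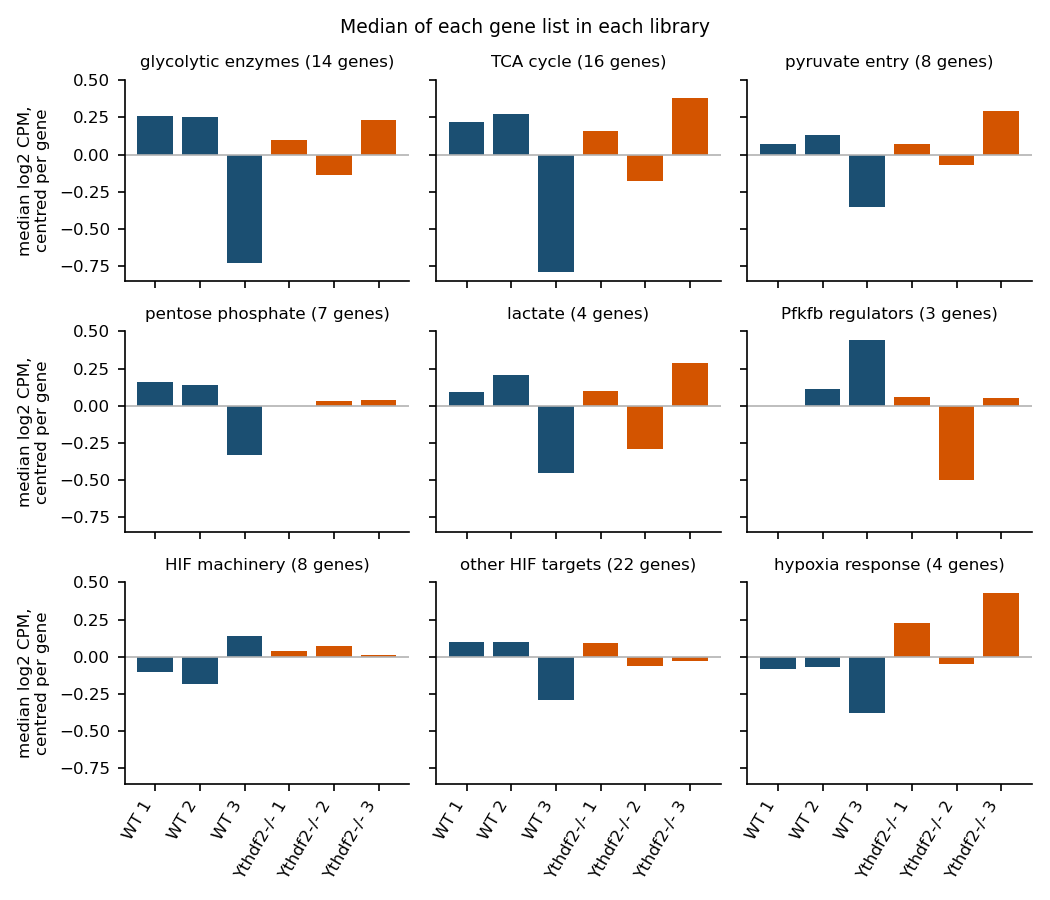
Median log2 CPM of 9 gene lists in each library, after the mean of each gene over the 6 libraries was set to 0 (blue, wild type, and orange, Ythdf2-/-). Wild-type replicate 3 lies at -0.73 for glycolytic enzymes and at -0.79 for the TCA cycle but at 0.44 for the Pfkfb regulators, and Ythdf2-/- replicate 2 is under 0 in the first 2 lists while the other Ythdf2-/- libraries are above.

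The neighbouring pathways were read from lists of genes that are no members, and 0 of their genes were called at an adjusted p under 0.05 in all 6 libraries. The 16 genes of the TCA cycle, among them the citrate synthase gene Cs (423 to 1060 CPM), were all lowest in wild-type replicate 3, against 34.4% of all genes tested, with a median difference of -0.94 from the other 5 libraries on the log2 scale. For the 14 glycolytic enzymes tested the same median difference was -0.87, with 9 lowest and 4 highest in that library. The median log2 fold change of the TCA cycle genes was 0.18, with 15 above 0, and it became -0.11, with 14 below 0, once wild-type replicate 3 was left out. For the glycolytic enzymes the median went from 0.04 to -0.23, with 9 and then 4 of 14 above 0. In both pathways the sign of the median thus turned without that library. The pentose phosphate genes, led by Tkt (449 to 613 CPM), had a median of -0.03 and of -0.14 without it. In all 6 libraries 0 of the 7 had an unadjusted p under 0.05 by edgeR, and without that library 2 did, both lower in Ythdf2-/-, beside 8.58% of all genes. These were Rpia (-0.60, SE 0.225) and Rpe (-0.26, SE 0.102), an isomerase and an epimerase gene of the pathway named after their values were seen. The groups then did not overlap for 5 of the 7, with Ythdf2-/- lower, beside 20.1% of all genes. Of the 8 genes of pyruvate entry, led by Dld and Pcx, 6 lay above 0, with a median of 0.11 and of -0.05 without it. In all 6 libraries their groups did not overlap for 2, with Ythdf2-/- higher, beside 5.24% of all genes. Without wild-type replicate 3 this held for 2 with Ythdf2-/- higher and 2 with it lower, beside 18.8% and 20.1% of all genes.

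The genes that set HIF activity held no call at an adjusted p under 0.05 either. These 8 genes, led by Arnt2 (321 to 450.0 CPM) and Egln1 (85.3 to 124 CPM), lay at a median of 0.05 for the log2 fold change, or 0.23 without wild-type replicate 3. Without it 7 of the 8 lay above 0, and the groups did not overlap for 4 with Ythdf2-/- higher, beside 18.8% of all genes, and for 1 with it lower, beside 20.1%. Cited2, a gene whose product competes with HIF for a coactivator, named after its values were seen, then had the 1 unadjusted p under 0.05 (0.0194 by edgeR, adjusted p of 0.234), at a log2 fold change of 0.72 (SE 0.232) against 0.46 (SE 0.289) in all 6 libraries. Of 28 further HIF targets, led by Tfrc, 22 were tested, with 9 above and 13 below 0 and a median of -0.06, or -0.17 without wild-type replicate 3. At an unadjusted p under 0.05, 2 were called, both higher in Ythdf2-/-, beside 3.63% of all genes. In all 6 libraries the groups did not overlap for 3 with Ythdf2-/- higher, beside 5.24% of all genes, and for 0 with it lower, beside 4.92%. Without wild-type replicate 3, 23 were tested, and 2 were higher and 3 lower (Car12 at -2.82, Ero1l at -0.26 and Fam162a at -0.34 on the log2 scale), beside 8.03% and 8.58% of all genes. Car12 rests on 2 to 33 reads per library and did not pass the filter in all 6. The groups then did not overlap for 3 targets with Ythdf2-/- higher and 5 with it lower, beside 18.8% and 20.1% of all genes. The 2 called in all 6 libraries were Ddit4, a stress-induced inhibitor of mTOR signaling, at 55.1, 50.5 and 60.2 CPM in wild type and 76.7, 152 and 70.8 CPM in Ythdf2-/- (log2 fold change 0.85, unadjusted p of 0.0325 by edgeR), and Plod1, a collagen lysyl hydroxylase gene, at 65.3 to 72.3 CPM and 87.4 to 97.9 CPM (log2 fold change 0.45, unadjusted p of 0.00692). Of 20 other genes of glucose use, 12 were tested, with a median of 0.00, and 1 had an unadjusted p under 0.05, beside 3.63% of all genes. With wild-type replicate 3 left out, their median came to 0.13 and 2 had such a p, both higher in Ythdf2-/-, beside 8.03% of all genes. One of them, the enolase gene Eno3, also named after its values were seen, turned from -0.09 to 0.66 (unadjusted p of 0.0394 by edgeR). The gene with such a p in all 6 libraries was Slc2a12, a glucose transporter gene, at 5.05, 6.18 and 8.05 CPM in wild type and 13.5, 14.6 and 11.6 CPM in Ythdf2-/- (log2 fold change 1.04, unadjusted p of 0.0049). Ddit4, Plod1 and Slc2a12, named after their values were seen like the 3 lower targets, kept their direction without wild-type replicate 3, at 0.92, 0.43 and 1.23, and their groups did not overlap. None passed the adjusted test of edgeR, and limma-voom with quality weights called 1, Slc2a12 (log2 fold change 1.18, adjusted p = 0.0345). Of 2 further targets named after their values were seen, Epo had 0 reads in all libraries, and Car9, a classical hypoxia marker, had reads in wild-type replicate 1 alone, at 0.0856 CPM.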

How the data were processed

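RNA-seq of 3 wild-type and 3 Ythdf2-/- input samples was used, grouped by the sample titles, and the 6 m6A-IP samples were not analysed here. Reads had been mapped to mm10 by the authors with TopHat, and the raw counts they deposited are whole reads per gene. FeatureCounts is among the tools in the submitters' processing notes, but its strand setting and its treatment of multi-mapped reads are not given in the sources used here. The authors also deposited expected counts and FPKM in tables shaped like RSEM output (the notes name RSEM 1.2.15 and Bowtie2 2.2.9). These expected counts summed to 1.97% to 2.4% of the raw counts, so FPKM served only as an alternative. It was fitted by limma on log2(FPKM + 1) or log2(FPKM + 0.1), for genes with an FPKM of at least 1 in 3 libraries. For genes near 0 the size of a difference depends on the pseudocount: Pfkfb3 stood at 1.55 with 1 and at 3.55 with 0.1, and Pdk2 at -0.30 and -1.19.

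Raw counts went through edgeR 4.0.16 in R 4.3.3 (filterByExpr, TMM, robust glmQLFit and glmQLFTest), fitting genotype alone, and p-values were adjusted after Benjamini and Hochberg over 13112 genes. As alternatives, DESeq2 1.42.0, limma-voom from limma 3.58.1, other scalings and filters, a replicate block, a term for Y-linked reads (more than 3) and the omission of each library were tried. The fits were tested on simulated data. Isozyme ratios were compared by exact permutation. The biological coefficient of variation was 0.332. All members were named, and of the other lists the 2 highest genes where values are given, and markers at 0. Some list genes are not reported here by name. The members and lists were chosen with earlier results of these data known. The p-values of the fits set the difference between genotypes against the spread between the 3 samples of a genotype, which the study calls biological replicates. Fits without 1 library rest on fewer samples of that library's genotype. The exact permutation p-values rank the difference among all regroupings of the libraries.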

Additional observations from a re-analysis of the deposited data

How the results depend on the processing

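No member was called under any of the 19 alternatives, and the direction of each tested member was the same under DESeq2, limma-voom, edgeR without the robust option, RLE, upper quartile or no factors, and no filter (a filter of 10 counts in every library left 35 members, with the same direction). Leaving out 1 library turned the sign of 18 members. Their log2 fold changes then ran from -0.35 to 0.18 for Slc2a1, -0.55 to 0.10 for Hk2, -0.32 to 0.22 for Pfkl, -0.11 to 0.34 for Aldoa, -0.07 to 0.56 for Tpi1, -0.23 to 0.19 for Gapdh, -0.23 to 0.37 for Pgk1, -0.25 to 0.22 for Pgam1, -0.29 to 0.22 for Pkm, -0.23 to 0.24 for Slc16a1, -0.11 to 0.42 for Pdk1, -0.02 to 0.52 for Pdha1, -0.10 to 0.20 for Pdhb, -0.19 to 0.34 for Dlat, -0.20 to 0.18 for Pfkfb2, -0.47 to 0.32 for Epas1, -0.25 to 0.19 for Bnip3 and -0.26 to 0.59 for Adm. The log2 ratios ran from -0.84 to 0.26 for Hk2/Hk1, -0.69 to 0.10 for Pfkl/Pfkm, -0.11 to 0.86 for Slc2a3/Slc2a1, -0.10 to 0.31 for Slc16a3/Slc16a1 and -0.76 to 0.25 for Epas1/Hif1a. The Pfkfb median ran from -0.52 to -0.05. Without wild-type replicate 3, 15 members turned. With quality weights, which gave that library 0.0957 against 0.477 to 4.09, 15 also turned: Pfkl 0.18, Aldoa -0.07, Tpi1 -0.04, Gapdh -0.19, Pgk1 -0.23, Pgam1 -0.21, Pkm -0.29, Slc16a1 -0.11, Slc16a3 -0.03, Pdhb -0.11, Dlat -0.15, Pfkfb2 0.21, Epas1 0.44, Bnip3 0.17 and Adm -0.05. With the term for Y-linked reads, Slc2a1 stood at 0.13, Hk2 at 0.22, Pfkp at 0.00, Ldha at 0.22, Pdk1 at 0.00 and the median of the hypoxia response genes at 0.54. The FPKM of the members rest on few expected counts (5 to 13 for Ldha, 0 to 6.35 for Pfkfb3). With a pseudocount of 1 they gave Hk1 -0.33, Pfkm -0.42, Gapdh -0.48, Ldha 0.15, Slc16a3 -0.05, Pdk2 -0.30, Pdha1 -0.11, Pfkfb3 1.55 and Epas1 0.48, with medians of 0.73 for Pfkfb and 0.43 for the HIF subunits. With 0.1 they gave Hk1 -0.39, Pfkm -0.49, Gapdh -0.49, Ldha 0.16, Slc16a3 -0.03, Pdk2 -1.19, Pdha1 -0.12, Pfkfb3 3.55 and Epas1 0.57, with medians of 1.72, 0.90 and, for pyruvate dehydrogenase and its kinases, -0.12. The log2 ratio Pfkp/Pfkm was 0.32 from FPKM. The cause of these turns was not tested.

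Of all genes, DESeq2 called 6 higher and 25 lower in Ythdf2-/-, quality weights 78 and 73 (with 1 gene of the other pathways, Slc2a12, higher), the Y-linked term 0 and 13, and FPKM 0 and 2 or, with a pseudocount of 0.1, 0 and 1. RLE factors, upper quartile factors, no filter and 10 counts in every library each called 1, lower, and leaving out 1 library 0 to 2, lower. Ythdf2 passed the threshold with DESeq2 (log2 fold change -2.67, adjusted p = 1.65e-30), quality weights (-2.61, 0.000321), RLE (-2.67, 0.0474), upper quartile (-2.66, 0.0413), no filter (-2.64, 0.0173), 10 counts (-2.66, 0.0486), the Y-linked term (-2.75, 0.027) and without wild-type replicate 3 (-2.54, 0.0203). Over the fits without 1 library it lay at -2.78 to -2.54, and the other 5 did not pass (adjusted p of 0.246 to 0.866). Same-numbered libraries of the 2 genotypes did not deviate together (correlations -0.248, -0.244 and -0.394). With the replicate number as a block, 0 genes were called, Ythdf2 stood at -2.66 (adjusted p of 1), and the members' median was 0.11. At this depth, differences in Slc16a3, Ankrd37 and Pdk4 rest on few reads.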
